A study of Mus musculus with 36 samples.

Results

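The 37 genes described here are the adipocyte and lipid storage genes of mouse skin, taken by symbol from a given list out of the 55414 genes counted in each library. All 37 were found once in every file, and all 37 passed the filter on low counts that left 20657 genes for testing. They cover secreted products of fat cells (Lep, Adipoq, Retn, Cfd), proteins of the lipid droplet (Plin1, Plin4, Cidec, Cidea, G0s2) and uptake of fatty acids, glycerol and glucose (Lpl, Cd36, Fabp4, Acsl1, Aqp7, Slc2a4). They also cover lipolysis (Pnpla2, Lipe, Adrb3), fatty acid synthesis (Fasn, Acaca, Acly, Me1, Elovl6, Scd1, Thrsp) and triglyceride synthesis (Gpd1, Agpat2, Lpin1, Dgat1, Dgat2, Pck1). The remaining members are the transcription factors Pparg and Cebpa and 4 other genes of fat tissue (Car3, Aoc3, Acvr1c, Ucp1).

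Mouse skin carries a layer of white adipocytes beneath the dermis, beside lipid-making sebaceous glands. A white adipocyte takes up fatty acids, stores them as triglyceride in a single large droplet coated by perilipin, and releases them through lipases when beta-adrenergic signals arrive. It also secretes the hormones leptin and adiponectin. The transcription factors PPAR-gamma and C/EBP-alpha drive and hold the fat cell state. Several of the enzymes are not particular to fat: keratinocytes and sebocytes synthesise fatty acids, and muscle takes them up.

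Polyadenylated RNA was sequenced from skin biopsies of mice: 3 of unwounded skin, and wounds taken 2, 4 or 12 days after injury in 2 arms named only by the letters P and PD, which the labels do not explain. The P arm had 5, 5 and 6 libraries on these days and the PD arm 5, 6 and 6, giving 33 wounds. The series title concerns the removal of senescent cells with high p21 and its effect on wound closure. The labels gave no genotype, strain, age, sex or agent for any group, and the unwounded skin carried no arm label. Nothing in the labels says which animals the libraries came from, so p-values measure only the spread between these samples, which may be technical.

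Libraries held 11.807 to 58.376 M counts. Levels are given as CPM, each count divided by its library's total in M after scaling for composition. Differences are log2 values fitted by edgeR, and their p-values were adjusted over the 20657 genes by the Benjamini-Hochberg method. A gene was called at an adjusted p under 0.05. The summed level of 9 keratinocyte genes reached 2920 CPM or more in every library. That of 12 skeletal muscle genes ran from 78200 to 126000 CPM in unwounded skin and from 3080 to 87000 CPM in wounds at day 12. CPM are relative to the total of each library. In a whole biopsy, fewer fat cells, less RNA per fat cell and more RNA from other cells cannot be told apart.

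The promoters of 3 members are printed because these genes mark the main patterns of the data: Lep, which fell furthest among the hormones, Adipoq, which is near-exclusive to fat cells, and Scd1, a fatty acid enzyme called lower at day 12 alone. Each window is the 250 bases before the transcript start of the Ensembl canonical transcript, 5′ to 3′, from the GRCm39 genome with GENCODE vM39. The windows lie at chr6:29059966-29060215 (Lep, plus strand), chr16:22965036-22965285 (Adipoq, plus strand) and chr19:44396341-44396590 (Scd1, minus strand). None of their bases lies in an annotated exon of the 37 members, and exons of other genes were not checked. Capitals mark matches, on either strand, to TTNNGNAA, a loose form of the C/EBP site, and to CCAAT, read as ATTGG on the other strand. In Lep the capitals are the palindrome TTGCGCAA, which is also a match of the loose form.
Lep: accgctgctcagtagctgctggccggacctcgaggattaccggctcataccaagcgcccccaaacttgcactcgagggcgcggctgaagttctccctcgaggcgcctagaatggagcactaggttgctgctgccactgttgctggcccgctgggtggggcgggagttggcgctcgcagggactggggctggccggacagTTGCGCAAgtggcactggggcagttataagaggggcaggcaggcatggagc
Adipoq: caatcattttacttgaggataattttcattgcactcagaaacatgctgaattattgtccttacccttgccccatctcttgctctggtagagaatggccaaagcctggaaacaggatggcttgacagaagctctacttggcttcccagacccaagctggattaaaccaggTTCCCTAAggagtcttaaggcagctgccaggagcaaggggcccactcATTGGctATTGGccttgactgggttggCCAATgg
Scd1: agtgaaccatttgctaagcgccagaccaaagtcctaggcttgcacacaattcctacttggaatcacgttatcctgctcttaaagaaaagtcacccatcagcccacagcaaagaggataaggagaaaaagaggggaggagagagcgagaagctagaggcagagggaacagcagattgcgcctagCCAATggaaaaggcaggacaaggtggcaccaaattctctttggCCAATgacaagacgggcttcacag
The palindrome stood 51 bases before the Lep start and in 1 of the 37 member windows, against 0.165% of the windows of 21770 protein-coding genes. Matches of TTNNGNAA were in 12 member windows (32.4%) and in 36.9% of all windows, and CCAAT was in 9 (24.3%) and in 36.5%. The half-site AGGTCA, bound by nuclear receptors, was in 4 member windows (10.8%) and in 13.1% of all, and its direct repeat with 1 base between, the PPAR-RXR element, in 0 and in 0.0367%. A match describes letters in a window and does not show a bound site.

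Fat genes were lower in wounds than in unwounded skin, and more of them were called on each later day. PD wounds at day 2 were the group with few calls by edgeR over all libraries. In P wounds 11 members fell and 3 rose at day 2, 25 fell and 2 rose at day 4, and 31 fell and 0 rose at day 12. The shares of all tested genes that fell were 19%, 19.7% and 20% on these days, and those that rose 22.3%, 23.6% and 23.7%. In PD wounds 3 members fell and 3 rose at day 2, 27 and 3 at day 4, and 31 and 0 at day 12, against 18.4%, 21.8% and 20.7% of all genes lower and 21%, 25.4% and 24.2% higher. These shares of all genes apply also to the edgeR counts by role and by marker list given below against unwounded skin. The median log2 change of the members was -0.80, -1.37 and -2.21 in P wounds and -0.08, -1.49 and -1.85 in PD wounds, while that of all genes stayed between 0.02 and 0.10. Without regard to the test, 12, 21 and 31 members had every P wound below every unwounded library at days 2, 4 and 12 (22.6%, 19.8% and 20.1% of all genes), and 3, 2 and 0 had every one above (23.6%, 22.8% and 19.9%). In PD wounds 6, 23 and 28 lay wholly below (22.2%, 19.5% and 19.3%) and 3, 3 and 0 wholly above (22.5%, 21.4% and 19.1%). These 6 comparisons share the same 3 unwounded libraries, so errors in those libraries enter all of them. Without unwounded replicate 2, the library with the highest Adipoq and Lep, 6 members were lower in P wounds at day 2, 13 at day 4 and 24 at day 12, and 19 and 23 in PD wounds at days 4 and 12. In PD wounds at day 2, leaving out replicate 2 gave 5 lower members and 2 higher, and leaving out replicate 4 gave 2 lower and 4 higher.

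**Figure D1:**
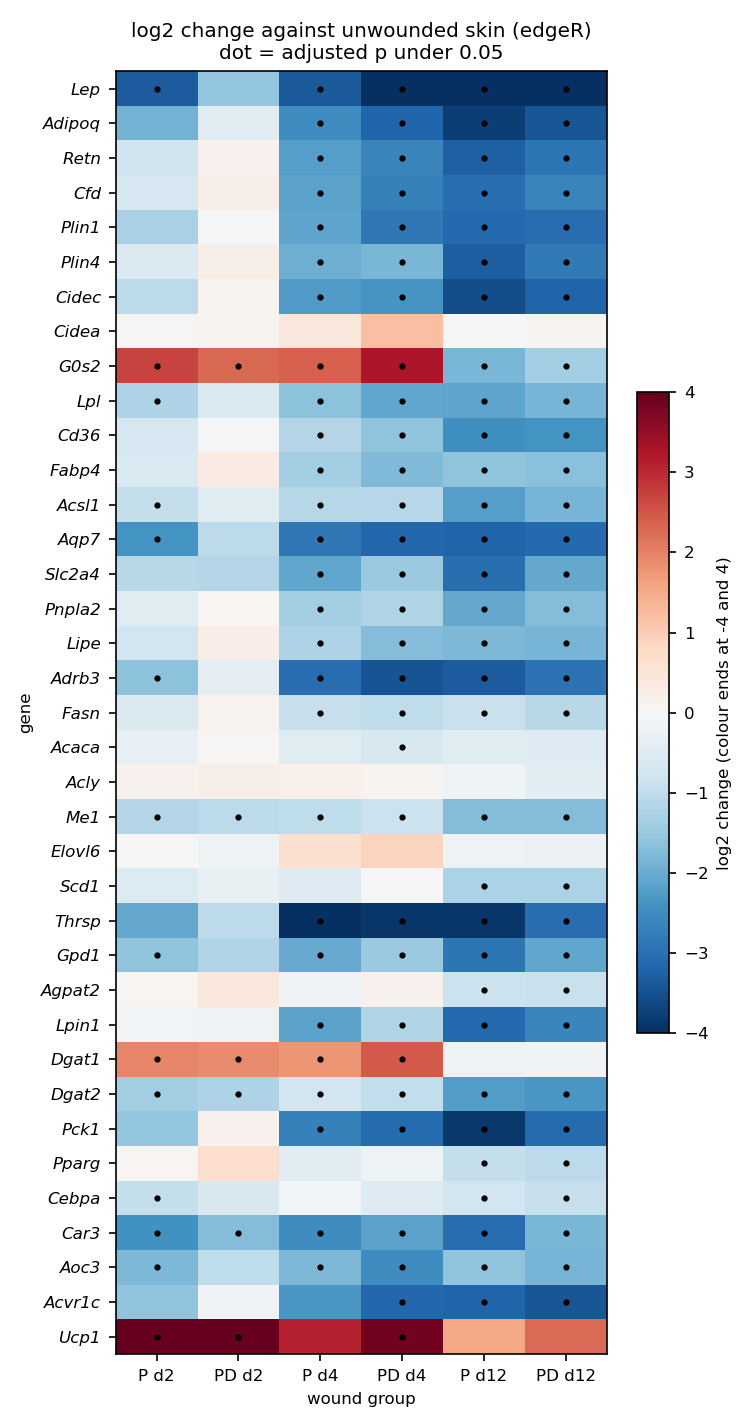
Log2 change of each of the 37 genes (vertical) in each of the 6 wound groups (horizontal) against the 3 unwounded libraries, from edgeR; blue is lower, red is higher, colour ends at -4 and 4, and a dot marks an adjusted p under 0.05. The dots fill most cells at day 12, 31 of 37 in either arm, while G0s2 and Dgat1 are red at days 2 and 4.

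Among the secreted products, leptin (Lep), the satiety hormone of fat cells, lay at 63.7, 109 and 42.5 CPM in unwounded skin. It lay at 9.12, 3.73, 1.99, 14 and 6.67 CPM in P wounds at day 2 and 7.36, 7.01, 2.92, 0.577 and 17 at day 4, and at 2.01 to 3.26 CPM (median 2.32) at day 12. Every P wound was below every unwounded library on each day. Lep fell 10.1-fold at day 2 (edgeR log2 -3.33 ± 0.83 SE with adjusted p = 0.00175), 10.2-fold at day 4 (edgeR log2 -3.36 ± 0.83 SE with adjusted p = 0.00174) and 28.8-fold at day 12 (edgeR log2 -4.85 ± 0.82 SE with adjusted p = 2.29e-05). In PD wounds at day 2 it lay at 43.5, 38.6, 30.5, 3.6 and 4.09 CPM: replicates 1, 2 and 3 were near the lowest unwounded library and replicates 4 and 5 far below, and the gene was not called (edgeR log2 -1.58 ± 0.81 SE with adjusted p = 0.121). Limma-voom and edgeR with 2 surrogate variables called Lep lower there (adjusted p = 0.00362 and 0.00858), and the rest of the settings did not. At days 4 and 12 the PD wounds held 0.679 to 8.94 CPM (median 1.67) and 0.963 to 5.92 CPM (median 2.19), all below unwounded skin, and Lep fell 19-fold (edgeR, adjusted p = 7.73e-05) and 26.9-fold (edgeR, adjusted p = 2.97e-05).

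Adiponectin (Adipoq), the most fat-restricted of the secreted products, lay at 235, 341 and 136 CPM in unwounded skin. It lay at 64.1, 45.7, 12.5, 134 and 64.2 CPM in P wounds at day 2 and 48.8, 31.4, 10.1, 11.7 and 109 at day 4, and at 7.91 to 22.9 CPM (median 19.6) at day 12. All were below unwounded skin, although P day 2 replicate 4 and P day 4 replicate 5 came close to the lowest unwounded library. The fall was 5.63-fold at day 4 (edgeR log2 -2.49 ± 0.79 SE with adjusted p = 0.0111) and 13.7-fold at day 12 (edgeR log2 -3.78 ± 0.76 SE with adjusted p = 0.0002), and day 2 missed the threshold (edgeR log2 -1.89 ± 0.78 SE with adjusted p = 0.0507). DESeq2 and limma-voom called Adipoq lower in P wounds at day 2 (adjusted p = 0.0322 and 0.00121). So did edgeR on the compared libraries alone, with a filter at a mean of 1 CPM, and with totals and factors without marker and member genes (adjusted p = 0.0273, 0.0432 and 0.0491). The rest of the settings did not. The day 4 call was lost without unwounded replicate 2. In PD wounds at day 2 the 5 libraries held 216, 324, 295, 30.1 and 15.3 CPM, of which the first 3 lay inside the unwounded range (edgeR log2 -0.43 ± 0.79 SE with adjusted p = 0.695). At day 4 they held 9.27 to 61.7 CPM (median 21.5) and at day 12 7.4 to 44.8 CPM (median 23.5), all below unwounded skin, and Adipoq fell 9.09-fold and 10.6-fold (edgeR, adjusted p = 0.00088 and 0.000583). Resistin (Retn) and adipsin (Cfd), the latter a protease of the alternative complement pathway, were called lower in both arms at days 4 and 12 and in neither at day 2. The P day 4 calls of both were lost without unwounded replicate 2. Their log2 changes at day 12 were -3.27 and -3.02 in P wounds and -2.89 and -2.63 in PD wounds.

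**Figure D2:**
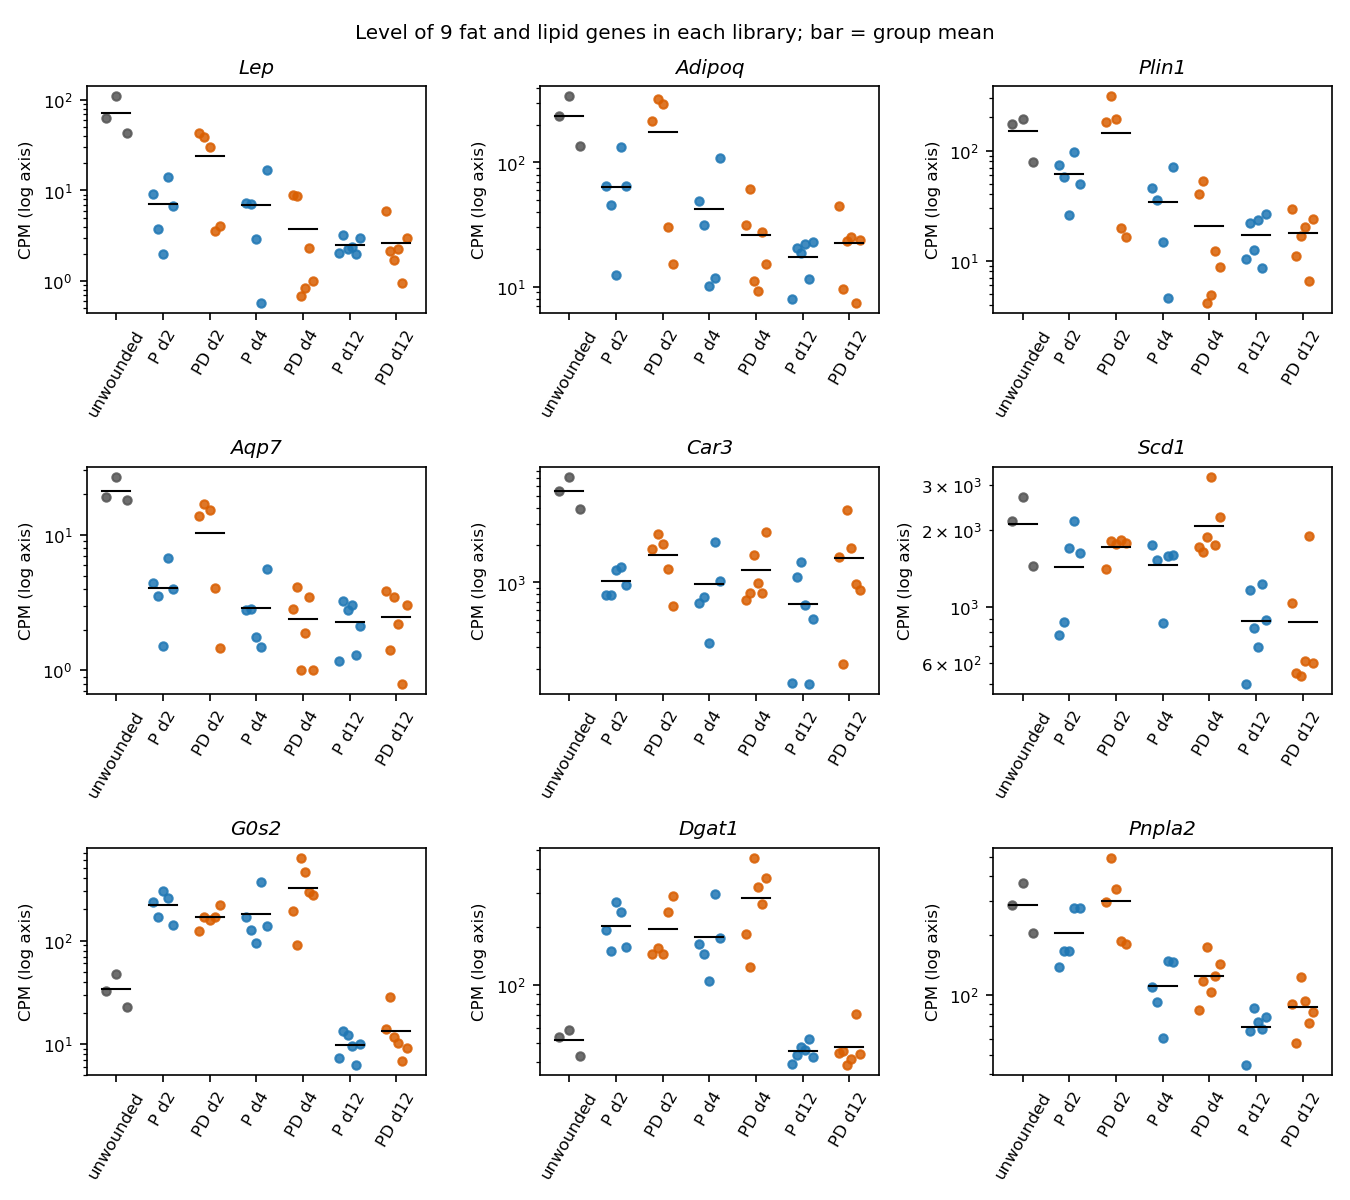
CPM (log axis) of 9 genes in each library, by group: grey unwounded skin, blue P wounds, orange PD wounds, with a bar at the group mean. The hormone and droplet genes of the top row part the 5 PD wounds of day 2 into 3 high and 2 low libraries, G0s2 and Dgat1 stand above unwounded skin at days 2 and 4, and Pnpla2 and Car3 fall with time or stay low.

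Of the 5 droplet genes, Plin1, Plin4 and Cidec fell at days 4 and 12 in both arms, G0s2 went the other way in early wounds, and Cidea was not called by edgeR over all libraries. Perilipin 1 (Plin1), the coat protein that gates access of lipases, lay at 176, 196 and 78.8 CPM in unwounded skin. P wounds held 73.6, 57.5, 26.1, 97 and 49.98 CPM at day 2 and 45.4, 35.6, 14.9, 4.61 and 71.5 at day 4, and 8.68 to 26.6 CPM (median 17.3) at day 12. Day 2 overlapped unwounded skin in 1 library and later days did not. Plin1 was not called at day 2 (edgeR log2 -1.30 ± 0.79 SE with adjusted p = 0.193) and fell at day 4 (edgeR log2 -2.12 ± 0.79 SE with adjusted p = 0.0305) and day 12 (edgeR log2 -3.12 ± 0.76 SE with adjusted p = 0.00148). Limma-voom and edgeR on the compared libraries alone did call it lower in P wounds at day 2 (adjusted p = 0.00895 and 0.0278), and the rest of the settings did not. In PD wounds the day 2 libraries held 182, 311, 192, 20.03 and 16.5 CPM (edgeR log2 -0.06 ± 0.81 SE with adjusted p = 0.971), and the log2 changes of days 4 and 12 were -2.86 and -3.05 (edgeR, adjusted p = 0.00264 and 0.00181). The P day 4 call of Plin1 was lost without unwounded replicate 1 or 2, without P day 4 replicate 3 or 4, and under 2 other settings. Cidec, which fuses droplets into the single droplet of a white fat cell, lay at 189.5, 210.5 and 95.7 CPM in unwounded skin and 214, 368, 245, 45 and 29.1 CPM in PD wounds at day 2, with the same replicates high and low. It fell 11.7-fold in P and 9.3-fold in PD wounds at day 12 (edgeR, adjusted p = 4e-05 and 0.000127), and Plin4, a further perilipin, 9.88-fold and 7.11-fold (edgeR, adjusted p = 4.35e-06 and 3.43e-05).

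G0s2, an inhibitor of the lipase encoded by Pnpla2, lay at 32.5, 47.8 and 22.7 CPM in unwounded skin. P wounds held 235, 168, 302, 260.2 and 141 CPM at day 2 and 168, 126, 95.1, 368 and 138 at day 4, all above unwounded skin. At day 12 they held 6.26 to 13.2 CPM (median 9.72), all below it. The gene rose 6.45-fold at day 2 and 5.2-fold at day 4 and fell 3.54-fold at day 12 (edgeR, adjusted p = 9.69e-05, 0.000362 and 0.000984). In PD wounds G0s2 rose 4.88-fold and 9.42-fold at days 2 and 4 and fell 2.57-fold (edgeR, adjusted p = 0.000554, 9.23e-06 and 0.0106), with 1 library at day 12 inside the unwounded range. The PD day 12 call of G0s2 was lost without unwounded replicate 2. Neutrophils also express G0s2, and the summed level of 5 neutrophil genes ran from 0.577 to 2.43 CPM in unwounded skin, 2210 to 13100 CPM in wounds at days 2 and 4, and 7.92 to 444 CPM at day 12. Retnlg, one of the 5, had 0 counts in unwounded skin. The part of these cells in the G0s2 values was not tested. Cidea, a droplet protein of brown fat and sebaceous glands, lay at 47.2, 24.2 and 43.7 CPM in unwounded skin and was furthest from it, on the higher side, in PD wounds at day 4 (standard error 0.57, 95% interval 0.04 to 2.36), with edgeR adjusted p between 0.0824 and 0.999 over the 6 groups. There DESeq2 and limma-voom called Cidea higher (adjusted p = 0.0414 and 0.00558), as did edgeR on the compared libraries alone (adjusted p = 0.0269), and limma-voom called it lower in PD wounds at day 2 (adjusted p = 0.00743).

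All 6 uptake genes were called lower at days 4 and 12 in both arms, 3 at day 2 in P wounds and 0 at day 2 in PD wounds (edgeR, with 0 of the 6 at an unadjusted p under 0.05). In PD wounds at day 2 Slc2a4 was called lower by limma-voom (adjusted p = 0.00379). EdgeR called it there with 2 surrogate variables and on the compared libraries alone (adjusted p = 0.0159 and 0.00132). Aquaporin 7 (Aqp7), the glycerol channel of fat cells, lay at 18.9, 26.5 and 18.1 CPM in unwounded skin, 4.41, 3.52, 1.52, 6.72 and 3.97 in P wounds and 13.8, 16.9, 15.3, 4.03 and 1.46 in PD wounds at day 2. It was below every unwounded library in all 33 wounds. It fell 5.24-fold in P wounds at day 2 (edgeR log2 -2.39 ± 0.57 SE with adjusted p = 0.00108) and 9.3-fold and 8.59-fold at day 12 in P and PD wounds (edgeR, adjusted p = 2.34e-05 and 3.74e-05). In PD wounds at day 2 it was not called (edgeR log2 -1.04 ± 0.56 SE with adjusted p = 0.143). Limma-voom and edgeR with 2 surrogate variables called Aqp7 lower there (adjusted p = 0.0145 and 0.046), and the rest of the settings did not. The fatty acid transporter Cd36, which macrophages and vessels share with fat, lay at 267, 479 and 181 CPM in unwounded skin and fell in P wounds at day 4 (edgeR log2 -1.16 ± 0.48 SE with adjusted p = 0.0488), a call lost under 4 of 10 other settings and without any 1 of 6 libraries. At day 12 it fell 5.47-fold and 5.27-fold in P and PD wounds (edgeR log2 -2.45 ± 0.46 SE with adjusted p = 7.49e-05, and edgeR log2 -2.40 ± 0.45 SE with adjusted p = 0.000102). At day 2 its log2 changes were -0.68 and -0.08 (edgeR, adjusted p = 0.269 and 0.915).

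Lipoprotein lipase (Lpl), which frees fatty acids from circulating triglyceride, fell 2.37-fold, 3.1-fold and 4.28-fold in P wounds at days 2, 4 and 12 (edgeR, adjusted p = 0.0186, 0.00258 and 0.000113). Fabp4, the fatty acid carrier of fat cells, lay at 712, 1191 and 533 CPM in unwounded skin. It lay at 1243, 2168, 1212, 281 and 165 CPM in PD wounds at day 2, where replicates 1, 2 and 3 were above all unwounded libraries and replicates 4 and 5 below all. At day 12 it fell 3.02-fold and 3.2-fold in P and PD wounds (edgeR, adjusted p = 0.00819 and 0.00577). Fabp4 calls were lost without unwounded replicate 2 at days 4 and 12 in both arms, and that of P wounds at day 4 also under 3 of 10 other settings and without unwounded replicate 1 or P day 4 replicate 2, 3 or 4. Acsl1, which activates fatty acids as acyl-CoA, fell 4.64-fold and 3.61-fold and Slc2a4, the insulin-responsive glucose transporter of fat and muscle, 8.13-fold and 4.17-fold on that day (edgeR, adjusted p at most 0.00581). The Slc2a4 call in PD wounds at day 4 was lost under 2 of 10 other settings and without any 1 of 7 libraries. The Lpl calls of P wounds at days 2 and 4, the Acsl1 call of P wounds at day 2 and the Cd36 call of PD wounds at day 4 were lost without unwounded replicate 2.

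The 3 lipolysis genes fell in both arms from day 4. Pnpla2, the lipase that takes the first fatty acid off triglyceride, lay at 284, 369 and 205 CPM in unwounded skin, 109, 92.6, 60.8, 148 and 147 in P wounds at day 4 and 44.5 to 86 CPM (median 70.2) at day 12. The day 4 and day 12 wounds were all below unwounded skin, a 2.57-fold and a 4.15-fold fall (edgeR, adjusted p = 0.000609 and 1.51e-06). Lipe, the hormone-sensitive lipase, fell 3.44-fold in P and 3.62-fold in PD wounds at day 12 (edgeR, adjusted p = 0.0015 and 0.00105). Its P day 4 call (edgeR, adjusted p = 0.03) was lost under 3 of 10 other settings and without P day 4 replicate 3 or 4 or unwounded replicate 1 or 2. Adrb3, the beta-adrenergic receptor of fat cells, lay at 69.6, 90.9 and 38 CPM in unwounded skin, 7.3, 7.35, 3.66, 6.58 and 15.2 in P wounds at day 4 and 2.71 to 8.21 CPM (median 7.38) at day 12. It fell 8.23-fold and 9.95-fold in P wounds and 10.9-fold and 7.74-fold in PD wounds (edgeR, adjusted p = 0.000621, 0.000128, 6.82e-05 and 0.000451). The call of Adrb3 in P wounds at day 2 (edgeR, adjusted p = 0.0454) was lost under 4 of 10 other settings and without any 1 of 6 libraries.

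Of the 7 fatty acid synthesis genes, 1, 3 and 4 fell in P wounds at days 2, 4 and 12 and 1, 4 and 4 in PD wounds, and 0 rose. Of all tested genes 19%, 19.7% and 20% fell in P and 18.4%, 21.8% and 20.7% in PD wounds. Fasn, the fatty acid synthase, lay at 700.0, 726 and 386 CPM in unwounded skin and at 345, 218, 250.1, 894 and 312 in P and 402, 1416, 764, 357 and 360.2 in PD wounds at day 2, where P replicate 4 and PD replicates 2 and 3 were above all unwounded libraries. It was not called at day 2 (edgeR log2 -0.58 ± 0.39 SE with adjusted p = 0.233, and edgeR log2 0.13 ± 0.39 SE with adjusted p = 0.826). Limma-voom alone called Fasn lower in P wounds at day 2 (adjusted p = 0.0299). It fell at day 4 (edgeR log2 -0.93 ± 0.38 SE with adjusted p = 0.0495, and edgeR log2 -1.01 ± 0.37 SE with adjusted p = 0.024) and day 12 (edgeR log2 -0.89 ± 0.37 SE with adjusted p = 0.0481, and edgeR log2 -1.12 ± 0.37 SE with adjusted p = 0.0139) in P and PD wounds. The P calls are next to the threshold and were lost under 4 and 7 of 10 other settings, and without most single libraries. The PD calls were lost without unwounded replicate 1 or 2, the day 4 call also without PD day 4 replicate 3, 5 or 6, and each under 1 of 10 other settings. Scd1, the desaturase that makes oleate, lay at 2175, 2691 and 1445 CPM in unwounded skin. It lay at 1745, 1531, 865, 1585 and 1594 CPM in P and 1636 to 3217 CPM (median 1810.0) in PD wounds at day 4, overlapping unwounded skin (edgeR log2 -0.52 ± 0.36 SE with adjusted p = 0.24, and edgeR log2 -0.02 ± 0.35 SE with adjusted p = 0.972). At day 12 it fell 2.38-fold and 2.41-fold (edgeR, adjusted p = 0.00354 and 0.00322), with PD replicate 5 at 1894 CPM. The P call was lost without unwounded replicate 2.

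Me1, which supplies NADPH for the synthesis, was the member of this role called lower in all 6 groups, between 1.81-fold and 3.33-fold (edgeR, adjusted p at most 0.00366), and the PD day 4 call was lost without unwounded replicate 2. Thrsp, a lipogenic protein that responds to thyroid hormone, lay at 104, 126 and 38.7 CPM in unwounded skin, 5.08, 6.36, 2.36, 86.3 and 8.96 in P and 15.7, 142, 47.6, 10.9 and 2.24 in PD wounds at day 2. P replicate 4 and PD replicates 2 and 3 were inside or above the unwounded range and the others below it. At day 2 edgeR over all libraries called Thrsp in neither arm. DESeq2 called it lower in P wounds (adjusted p = 0.0463), and limma-voom in P and PD wounds (adjusted p = 0.000253 and 0.00521). Thrsp fell 18.2-fold in P and 14.7-fold in PD wounds at day 4 (edgeR, adjusted p = 0.000791 and 0.000639). Acly, which makes cytosolic acetyl-CoA, and the elongase Elovl6 were called by edgeR over all libraries in no wound group against unwounded skin, with log2 changes of -0.41 to 0.25 and -0.23 to 0.89. By limma-voom Elovl6 was lower in PD wounds at days 2 and 12 and higher at day 4 (adjusted p = 0.00149, 0.0316 and 0.0242), and Acly higher in P wounds at day 4 and lower in PD wounds at day 12 (adjusted p = 0.0181 and 0.0278). With edgeR on the compared libraries alone, Elovl6 was higher in PD wounds at day 4 and Acly lower in PD wounds at day 12 (adjusted p = 0.0387 and 0.0414). Acaca, the carboxylase that starts the synthesis, was called in PD wounds at day 4 alone (edgeR log2 -0.65 ± 0.25 SE with adjusted p = 0.0343), a call lost under 3 of 10 other settings and without any 1 of 6 libraries. Sebocytes express Scd1, Elovl6 and Cidea as well. The summed level of 10 sebaceous genes ran from 564 to 810 CPM in unwounded skin, 1520 to 3610 at day 4 and 425 to 2640 at day 12. Its part in these values was not tested.

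In triglyceride synthesis the 2 enzymes of the last step parted. Dgat1 lay at 53.8, 58.7 and 43 CPM in unwounded skin, 192, 150.4, 268, 238 and 157 in P wounds at day 2 and 162, 145, 105, 294 and 175 at day 4, all above it. It rose 3.88-fold and 3.4-fold in P wounds (edgeR, adjusted p = 2.33e-05 and 8.82e-05) and 3.75-fold and 5.45-fold in PD wounds (edgeR, adjusted p = 3.82e-05 and 8.79e-07). At day 12 it was back inside or near the unwounded range, at 38.9 to 52.6 CPM (median 44.8) in P wounds (log2 -0.20, edgeR, adjusted p = 0.615). Dgat2, which serves new fat made in the cell, lay at 247, 245 and 209 CPM in unwounded skin and at 104, 79.7, 74.4, 115 and 72.8 in P wounds at day 2. It was called lower in all 6 groups, 2.62-fold, 1.71-fold and 4.74-fold in P and 2.36-fold, 1.98-fold and 5.06-fold in PD wounds (edgeR, adjusted p = 0.000233, 0.0288, 1.46e-07, 0.000895, 0.00391 and 7.43e-08). The P day 4 call of Dgat2 was lost without any 1 of the 3 unwounded libraries and without P day 4 replicate 3 or 4. Every wound was below every unwounded library for Dgat2.

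Pck1, which makes the glycerol backbone from pyruvate in fat cells, lay at 105, 222 and 53.9 CPM in unwounded skin and at 142, 319, 213, 29 and 6.29 CPM in PD wounds at day 2, low in replicates 4 and 5 as for Adipoq. It fell 6.58-fold and 14.4-fold in P and 8.48-fold and 8.44-fold in PD wounds at days 4 and 12 (edgeR, adjusted p = 0.0148, 0.000674, 0.00365 and 0.0043). The Pck1 calls of P wounds at day 4 and PD wounds at day 12 were lost without unwounded replicate 2. Gpd1, which makes glycerol 3-phosphate from a glycolytic intermediate, fell 7.35-fold and the phosphatase Lpin1 8.7-fold in P wounds at day 12 (edgeR, adjusted p = 0.000193 and 5.25e-07). In PD wounds at day 2 edgeR over all libraries did not call Gpd1. Limma-voom called it lower there (adjusted p = 0.00653), as did edgeR on the compared libraries alone and with 2 surrogate variables (adjusted p = 0.00798 and 0.0496). Agpat2, an acyltransferase of the pathway, was called at day 12 alone, 1.83-fold lower in P and 1.83-fold in PD wounds (edgeR, adjusted p = 0.0136 and 0.0131), calls lost without unwounded replicate 1 or 2. Muscle expresses Lpin1 and Gpd1 too. Of the 12 muscle genes, 1, 11 and 10 were called lower in P wounds at days 2, 4 and 12 and 3, 2 and 4 in PD wounds, and their part in these changes was not tested.

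Both fat cell regulators were called lower at day 12. Pparg, the master regulator of fat cells, lay at 21.5, 30.7 and 15.6 CPM in unwounded skin and at 19.6, 17.5, 25.2, 31.3 and 25 in P and 32.4, 52.3, 48.3, 25.6 and 22.4 in PD wounds at day 2, within or above its unwounded range. At day 2 in PD wounds edgeR gave edgeR log2 0.68 ± 0.30 SE with adjusted p = 0.074, not called, while Pparg was called higher by limma-voom, with 2 surrogate variables and without a composition factor (adjusted p = 0.000134, 0.0447 and 0.0324). EdgeR did not call it in P wounds at day 2 or in either arm at day 4, and it fell at day 12 (edgeR log2 -0.94 ± 0.28 SE with adjusted p = 0.00725 in P, and edgeR log2 -1.03 ± 0.28 SE with adjusted p = 0.00348 in PD wounds). Cebpa, its partner in holding the fat cell state, fell in P wounds at day 2 (edgeR log2 -0.96 ± 0.27 SE with adjusted p = 0.00488) and in both arms at day 12 (log2 -0.77 and -0.91, edgeR, adjusted p = 0.0173 and 0.00527). EdgeR over all libraries did not call it in PD wounds at day 2. It was called lower there by edgeR with 2 surrogate variables, a replicate block or a filter at a mean of 1 CPM (adjusted p = 0.00507, 0.0476 and 0.0465). Limma-voom called it lower in PD wounds at days 2 and 4 (adjusted p = 0.000531 and 0.00042). Without unwounded replicate 2 the day 12 calls of Pparg in both arms were lost, and the P day 12 call of Cebpa was lost without any 1 of the 3 unwounded libraries.

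Carbonic anhydrase 3 (Car3), abundant in fat and slow muscle, lay at 5514, 7104 and 3958 CPM in unwounded skin. P wounds held 788, 788, 1266, 1343 and 953 CPM at day 2 and PD wounds 1863, 2481, 2052, 1283 and 645, all below it. Car3 fell in all 6 groups, between 3.32-fold in PD wounds at day 2 and 8.19-fold in P wounds at day 12 (edgeR, adjusted p = 0.0348 and 0.000267). The PD day 2 call was lost without any 1 of the 3 unwounded libraries and without PD replicate 4 or 5. Aoc3, an amine oxidase of the fat cell surface, was called lower by edgeR over all libraries in 5 groups, all but PD wounds at day 2. EdgeR with 2 surrogate variables called it lower there too (adjusted p = 0.00923). The Aoc3 calls of P wounds on all days and of PD wounds at day 12, and the Car3 call of PD wounds at day 12, were lost without unwounded replicate 2. Acvr1c, the activin receptor ALK7, was called lower in both arms at day 12 and in PD wounds at day 4 (log2 -3.21, -3.44 and -3.14, edgeR, adjusted p = 0.00783, 0.00514 and 0.0086). It had 0 counts in 3 wound libraries, where 3 counts would be 0.0973 to 0.173 CPM. Aqp7, Me1, Gpd1, Dgat2 and Car3 were below every unwounded library in all 33 wounds, 5 of the 37 members against 7.5% of all tested genes. No member was above in all 33, against 7.16%.

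Ucp1, the uncoupling protein of thermogenic fat, was nearly absent from unwounded skin, with 2 counts over the 3 libraries. At day 2 it lay at 0.259, 0.671, 1.11, 4.79 and 0.465 CPM in P wounds and 0.333, 6.09, 0.19, 0.0916 and 0.227 CPM in PD wounds. P replicate 4 and PD replicate 2 held 161 of 241 and 187 of 219 counts of their groups. The ratio of pooled CPM to unwounded skin was 65.3 in P wounds (95% exact interval 17.9 to 543) and 59.6 in PD wounds (16.3 to 495), intervals that cover counting error only. The gene was called higher in both at day 2 (edgeR, adjusted p = 0.00309 and 0.00375), and in PD wounds at day 4 (edgeR, adjusted p = 0.0458), a call lost without any 1 of 7 libraries. Without PD replicate 2 the PD day 2 call was lost (edgeR, adjusted p = 0.0509). It was not called in P wounds at day 4 or in either arm at day 12 (edgeR, adjusted p = 0.129, 0.497 and 0.274). Of 8 other genes of thermogenic fat, Dio2, the deiodinase that activates thyroid hormone, rose and Ppargc1a, the mitochondrial coactivator, fell in all 6 groups. At day 2 the P wounds had 1 of the 8 higher and 2 lower, and the PD wounds 1 and 1.

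**Figure D3:**
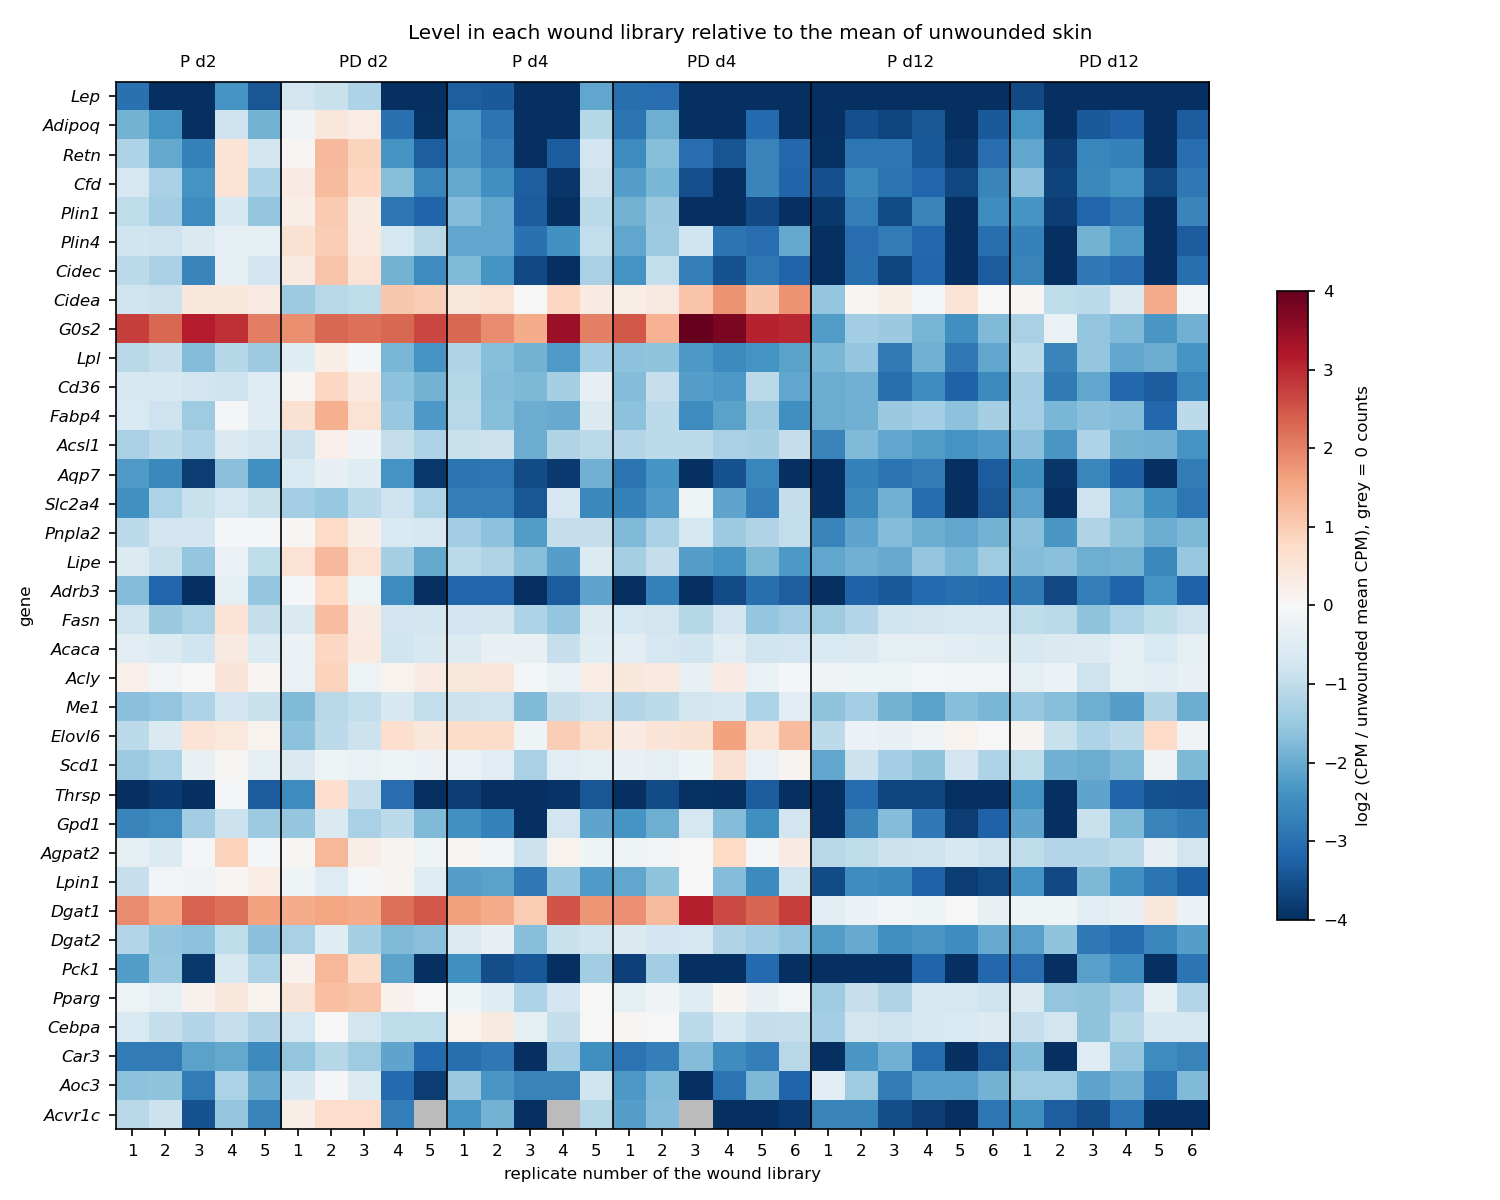
Each of 36 members (vertical; Ucp1 is left out because it was at 0 counts in 2 of 3 unwounded libraries) in each of the 33 wound libraries (horizontal, by group and replicate number), as log2 of its CPM over the unwounded mean; grey marks 0 counts. In PD wounds at day 2 the columns of replicates 1, 2 and 3 are white to red for Plin1, Cidec and Fabp4 but blue for Car3, Lep and Aqp7. Those of replicates 4 and 5 are blue for all of these genes, while Cidea and Elovl6 run the other way from Plin1.

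The 5 PD wounds of day 2 differed widely in fat genes. In PD replicates 1, 2 and 3, 13, 9 and 11 of the 37 members lay below all unwounded libraries and 9, 21 and 12 above. In replicates 4 and 5, 26 and 26 lay below and 6 and 6 above. The P wounds of day 2 had 26, 28, 25, 14 and 19 members below and 4, 3, 5, 11 and 4 above, replicate 4 having the fewest below. The summed level of 8 fat progenitor genes in PD replicates 1 to 5 was 922.5, 1082, 970.0, 298.6 and 387.0 CPM and that of 9 endothelial genes 845.5, 916.2, 760.7, 251.5 and 278.6 CPM, high in the same 3 libraries. Sebaceous genes summed to 443.1, 613.1, 601.6, 1771 and 1857 CPM, high in the other two. Muscle genes summed to 30760.0, 17560.0, 31360.0, 57770.0 and 37540.0 CPM. The 5 P wounds of that day held 913.5, 1132, 406.6, 418.3 and 420.0 CPM of progenitor genes and 676.3, 703.9, 373.8, 428.7 and 496.5 of endothelial genes. The part of these cells in the spread of the fat genes was not tested.

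The comparison between the arms asks whether fat genes differed in PD wounds. By edgeR no member was called on any day, of 0% of all tested genes called, and the day 2 values lean to higher levels in PD wounds with wide errors. At day 2, 31 of 37 differences were positive, with a median of 0.61 against -0.01 for all genes. The members share the same libraries, so these differences are not independent. The share of all genes with a positive difference was not counted on any day. By edgeR 10 members had an unadjusted p under 0.05 (Lep, Adipoq, Cidec, Fabp4, Aqp7, Lipe, Adrb3, Fasn, Pck1 and Pparg), as did 793 of all 20657 genes, and 0 of 37 were called by edgeR, DESeq2 or limma-voom. The 10 became 5 on the compared libraries alone, 5 with 2 surrogate variables and 17 by limma-voom. Lep had the widest difference (edgeR log2 1.76 ± 0.74 SE with adjusted p = 1, 95% interval 0.25 to 3.27), followed by Pck1 (edgeR log2 1.71 ± 0.80 SE with adjusted p = 1). Adipoq differed by 1.46 (95% interval 0.02 to 2.90) and Plin1 by 1.25 (95% interval -0.20 to 2.70), with an edgeR adjusted p of 1 for both. In 0 of 37 members did the arms separate without overlap at day 2 (1.4% of all genes with PD below P and 0.286% above). For Lep, Adipoq and Plin1, PD replicates 4 and 5 lay among or below the P wounds. Cd36, Fasn and Scd1 differed by 0.59, 0.71 and 0.27 (95% interval -0.27 to 1.46, 95% interval 0.02 to 1.40 and 95% interval -0.38 to 0.91). Without PD replicate 2 the differences of Lep, Adipoq and Plin1 were 1.52, 1.12 and 0.76, and with 2 surrogate variables 0.99, 0.87 and 0.50.

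**Figure D4:**
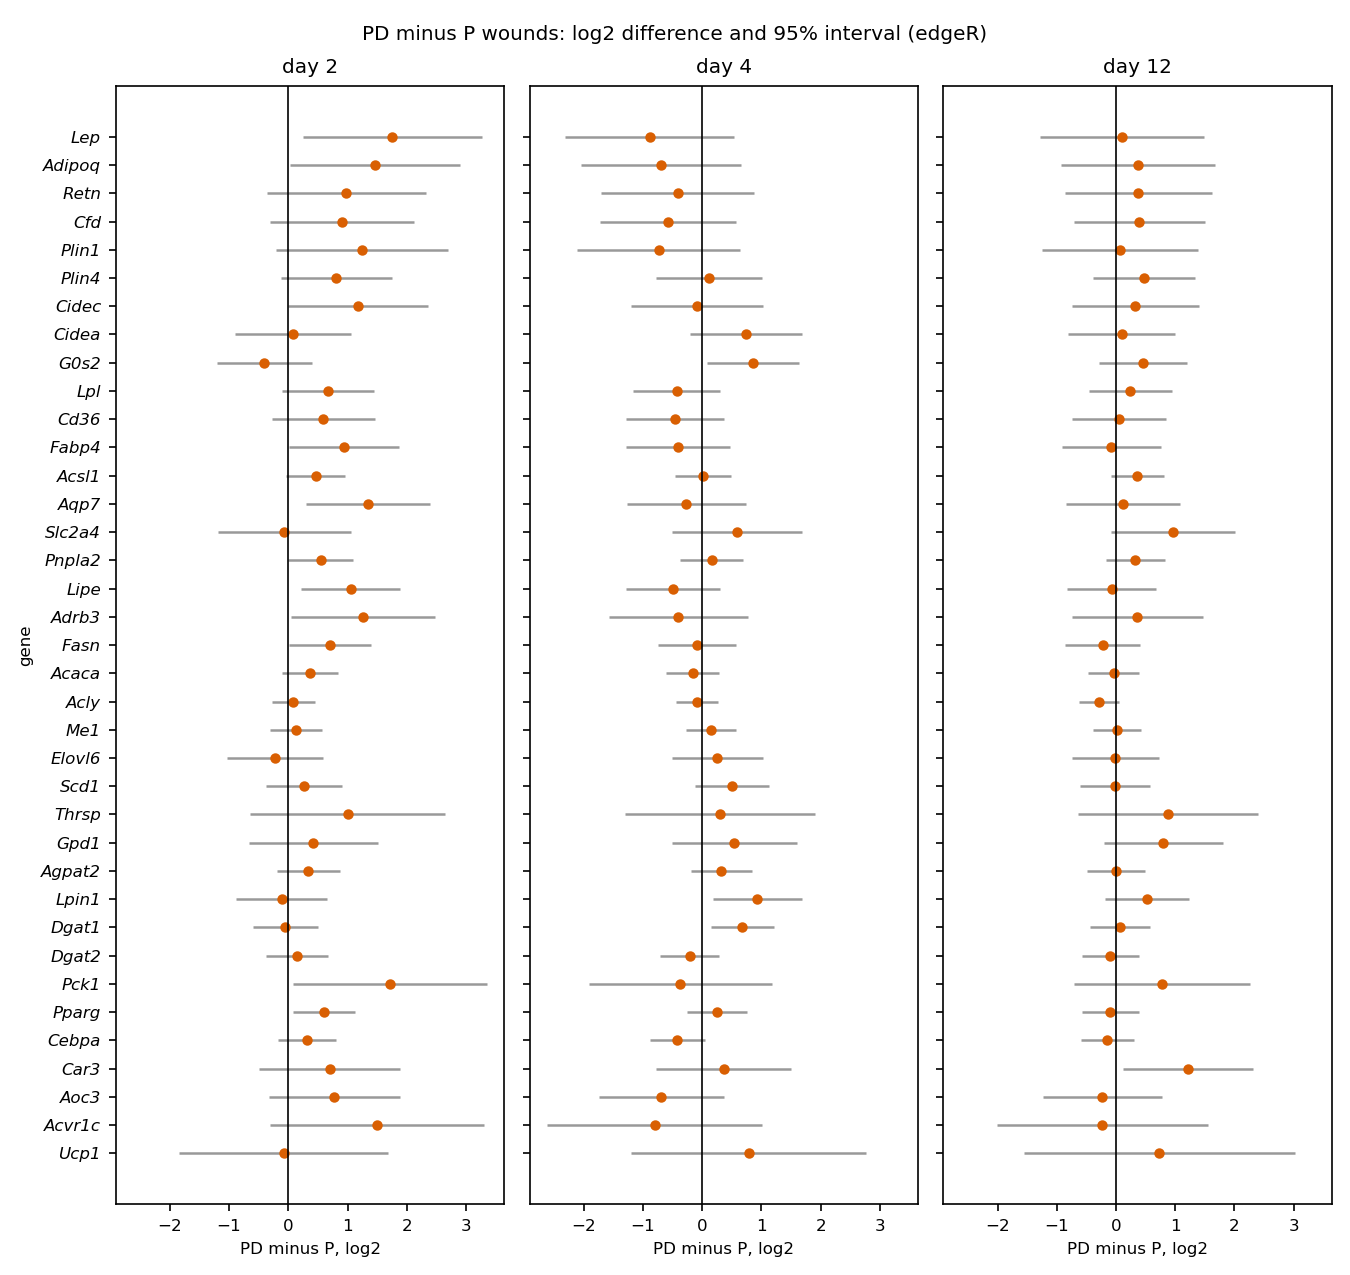
PD minus P difference (log2, horizontal) of each of the 37 genes (vertical) at days 2, 4 and 12, with edgeR's 95% interval as a bar. At day 2 31 of 37 points are right of 0 and most bars reach 0; at days 4 and 12 the points lie on both sides.

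At day 4, 17 of 37 differences were positive with a median of -0.08 against -0.01 for all genes. By edgeR 3 members had an unadjusted p under 0.05, as did 2369 of all 20657 genes, a larger share than among the members. With 2 surrogate variables 0 members did, and by limma-voom 11. The 3 members were G0s2 (edgeR log2 0.86 ± 0.38 SE with adjusted p = 0.405), Lpin1 (edgeR log2 0.93 ± 0.37 SE with adjusted p = 0.386) and Dgat1 (edgeR log2 0.68 ± 0.26 SE with adjusted p = 0.38), all higher in PD wounds. The calls were 0 by edgeR and by DESeq2, while limma-voom called G0s2 and Dgat1 higher (adjusted p = 0.0307 and 0.019) and Cebpa lower (0.0159), beside 981 of all genes higher and 1093 lower. G0s2 lay at 168, 126, 95.1, 368 and 138 CPM in P and 90.1 to 626 CPM (median 285) in PD wounds, which overlapped. In 0 of 37 members did the arms separate at day 4 (0.136% of all genes below and 0.174% above). At day 12, 24 differences were positive with a median of 0.10 against -0.03 for all genes. Car3 alone had an unadjusted p under 0.05 (edgeR log2 1.22 ± 0.54 SE with adjusted p = 0.884, 95% interval 0.13 to 2.31), at 151 to 1470.0 CPM (median 581) in P and 217 to 3853 CPM (median 1300.0) in PD wounds. The calls at day 12 were 0 by edgeR, DESeq2 and limma-voom. Acly was the 1 member with every PD wound below every P wound (0.0629% of all genes), and 0 were above (0.0678%). The muscle sum of day 12 ran from 3080 to 41800 CPM in P and 6130 to 87000 in PD wounds. Its part in the Car3 values was not tested. Adipoq and Lep differed by 0.37 and 0.10 at day 12 (95% interval -0.93 to 1.67 and 95% interval -1.29 to 1.49).

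Within each arm edgeR called more members lower than higher in every interval between days, but not the same members each time. In P wounds Lpin1 and Pnpla2 fell and Cebpa rose between days 2 and 4 (2.7% of all genes lower and 5.76% higher). Lpin1 fell 4.09-fold with no overlap, from 88.3, 156, 154, 178 and 208 CPM to 36.5, 38, 23.2, 58.7 and 35.1 (edgeR, adjusted p = 0.00148). The 2 lower calls became 5 without P day 4 replicate 5 and 1 without P day 4 replicate 1, 2 or 3 or P day 2 replicate 4 or 5, and Cebpa was not called without P day 4 replicate 1 or 2 or P day 2 replicate 3 or 5. Between days 4 and 12, 11 members were lower (12.6% of all genes) and 0 higher (11.2%), the lower ones including G0s2 (edgeR log2 -4.20 ± 0.42 SE with adjusted p = 7.35e-08), Dgat1 (edgeR log2 -1.96 ± 0.26 SE with adjusted p = 2.9e-06) and Dgat2 (edgeR log2 -1.47 ± 0.24 SE with adjusted p = 5.63e-05). That count was 5 without P day 4 replicate 5 and 7 without P day 4 replicate 1 or 2 or P day 12 replicate 1 or 4. From day 2 to day 12, 22 fell and 0 rose (20.5% and 20.4% of all genes), with 15 lower without P day 2 replicate 4. In PD wounds 19 members fell between days 2 and 4, against 1.59% of all genes, and 0 rose (2.67%). They included Adrb3 (edgeR log2 -3.06 ± 0.59 SE with adjusted p = 0.00339), Cfd (edgeR log2 -2.94 ± 0.59 SE with adjusted p = 0.00443), Plin1 (edgeR log2 -2.80 ± 0.70 SE with adjusted p = 0.0182) and Adipoq (edgeR log2 -2.75 ± 0.69 SE with adjusted p = 0.0182). The count was 8 without PD day 2 replicate 2, 11 without PD day 2 replicate 3, 12 without PD day 4 replicate 4 and 4 in a fit of these 11 libraries alone. Without PD day 2 replicate 4, 1 member rose. From day 4 to 12, 11 fell and 0 rose (15.6% and 15.7%), and from day 2 to 12, 30 fell and 0 rose (18.7% and 18.6%). The 11 were G0s2, Acsl1, Acly, Me1, Elovl6, Scd1, Agpat2, Lpin1, Dgat1, Dgat2 and Pparg, and 10 of 37 differences were positive. Between days 4 and 12 edgeR over all libraries called Lep, Adipoq, Plin1 and Cidec in neither arm. Mean Adipoq in PD wounds was 26.1 CPM at day 4 and 22.4 CPM at day 12. Members with every later library below every earlier one numbered 2, 4 and 14 in P wounds for days 2 to 4, 4 to 12 and 2 to 12 (3.37%, 6% and 12.2% of all genes) and 1, 4 and 10 in PD wounds (1.19%, 7% and 9.98%), and 0 were wholly above (3.54%, 3.93% and 10.7% in P and 2.13%, 6.12% and 10.1% in PD wounds). Whether the day 2 to day 4 change differed between the arms was not tested.

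The balance among fat genes also shifted. The level of each member was set against the mean log2 CPM of Adipoq, Plin1 and Cidec in the same library, a reference chosen after their values were seen, so the ratios are a description with no test. For Lep the log2 ratio lay between -1.64 and -1.14 in unwounded skin and between -3.94 and -1.94 in the wounds. It was lower than in any unwounded library in 33 of 33 wounds, PD day 2 replicates 1, 2 and 3 included. Of 16616 genes with counts in every library, 1 (0.00602%), Lep, had such a ratio. The ratios of Lipe, Dgat1, G0s2 and Pparg were above unwounded skin in all 33 wounds, as were those of 7.91% of genes. That of Lipe lay between -0.14 and -0.09 in unwounded skin and 0.05 to 2.52 in wounds. Adrb3 showed no such order: 20 wounds were below and 11 above its unwounded range of -1.51 to -1.41. A ratio above unwounded skin is not a rise of the gene, since the 3 reference genes were themselves called lower at days 4 and 12.

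**Figure D5:**
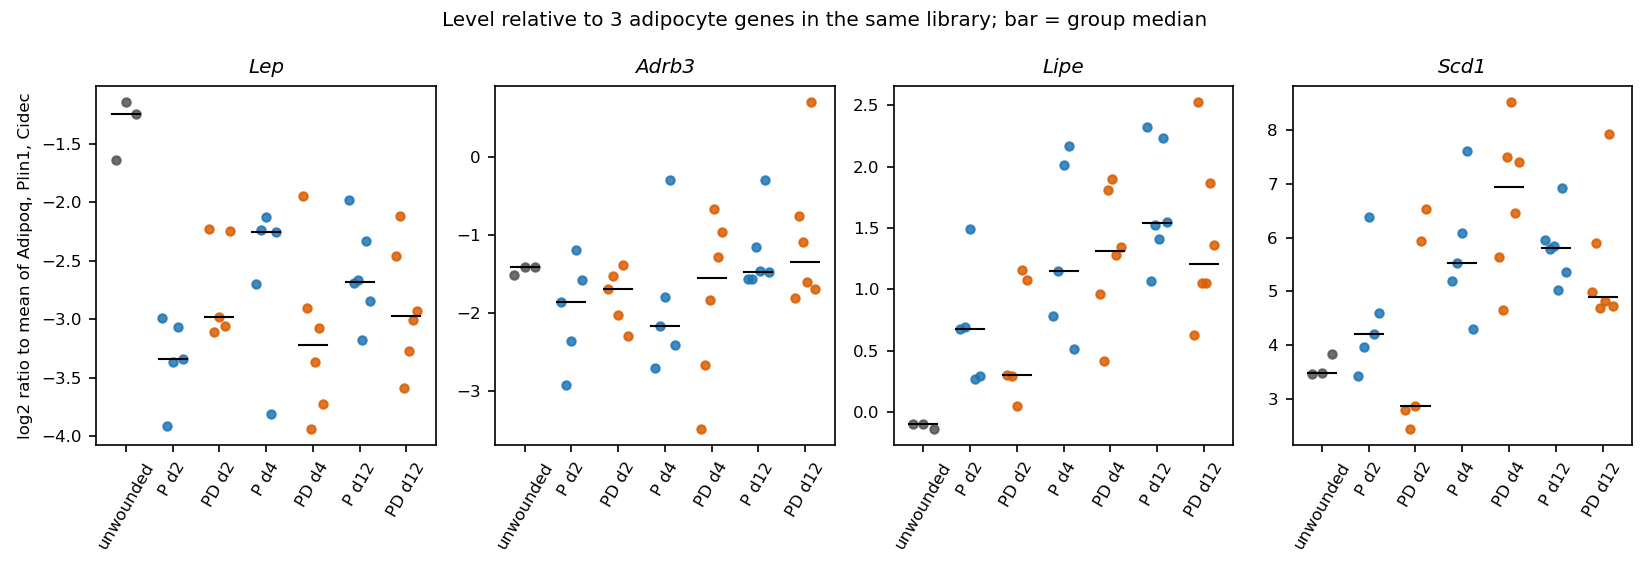
Log2 ratio of Lep, Adrb3, Lipe and Scd1 to the mean log2 CPM of Adipoq, Plin1 and Cidec in the same library (vertical), by group, 1 point per library with a bar at the group median. All 33 wounds are below the unwounded libraries for Lep and above them for Lipe.

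Genes of the same pathways that are not members fell more often than they rose, save in PD wounds at day 2. Of 40 such genes 12, 19 and 26 fell and 6, 7 and 3 rose in P wounds at days 2, 4 and 12, and 7, 16 and 27 fell and 7, 9 and 4 rose in PD wounds. Of all tested genes 19%, 19.7% and 20% fell and 22.3%, 23.6% and 23.7% rose in P wounds on these days. In PD wounds 18.4%, 21.8% and 20.7% fell and 21%, 25.4% and 24.2% rose. Klf15, a transcription factor of fat and muscle, and Npr3, the clearance receptor for natriuretic peptides, fell in all 6 groups, with log2 changes of -2.80 to -1.74 and -3.70 to -1.71. Plin5, the perilipin of oxidative tissue, fell 22.9-fold in P wounds at day 12 (edgeR, adjusted p = 1.29e-06). Plin2, the droplet coat found in most cells, rose in early wounds, from 102 ± 8.87 CPM (SD, n = 3) to 496 ± 134 CPM (SD, n = 5) in P wounds at day 2 (edgeR, adjusted p = 3.54e-05). Fabp5, the epidermal fatty acid carrier, rose in all 6 groups, by log2 3.57 in P wounds at day 4. Cebpb and Cebpd, which act early in fat cell formation and in inflammation, rose at days 2 and 4 in both arms. Srebf1, a regulator of lipid synthesis, had log2 changes of -0.20 to 0.14 and was not called. Of 12 macrophage genes 11 rose at days 2 and 4 in both arms. Their summed level ran from 169 to 441 CPM in unwounded skin and from 2150 to 6950 CPM in wounds of days 2 and 4. Of the 8 progenitor genes 1 rose and 0 fell in P wounds at day 2, and 2 rose and 0 fell at day 4. Their median log2 changes there were -0.39 and -0.01. Pdgfra rose at day 2 in both arms, and Dlk1, an inhibitor of fat cell formation, rose at day 12 (log2 4.21 and 4.25, edgeR, adjusted p = 0.00041 and 0.000396). The mean summed level of the 8 was 577 CPM in unwounded skin and 537 to 732 CPM in the wound groups. Of 9 endothelial genes 0 fell in any group and 1 rose, in PD wounds at day 4. Sebaceous genes had 3, 5 and 1 of 10 higher in P wounds at days 2, 4 and 12 and 2, 7 and 1 in PD wounds, with 1 lower in each group. Keratinocyte genes had 6, 1 and 3 of 9 lower in P wounds and 6, 3 and 5 in PD wounds, and 1 was higher in P wounds at day 2. Their mean summed level was 20700 CPM in unwounded skin, 32100 in P wounds at day 4 and 9670 to 19900 in the other wound groups. All 5 neutrophil genes rose in all 6 groups. Of 7 hair follicle genes 1 rose at day 2 in either arm, 6 in P and 1 in PD wounds at day 4, and all 7 at day 12 in both. The summed level at day 4 was 6161 CPM in P replicate 3 and 4.00 to 38.7 CPM in the other wounds. It was 5.46 to 8.33 CPM in unwounded skin, and 524 to 10400 CPM in P and 640.0 to 9500.0 CPM in PD wounds at day 12, and 1 of the 7, Krt73, had 0 counts in unwounded skin and in PD wounds at day 2. The part of these cells in the changes of the fat genes was not tested.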

How the data were processed

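Whole-number gene counts for 36 libraries were deposited by the authors, 1 file per library, over 55414 genes, of which 1416 carried no symbol. Per the labels' protocols, RNA was extracted with TRIzol, made into stranded polyadenylated libraries (TruSeq Stranded mRNA) and sequenced on a NovaSeq 6000. Trimmomatic, HISAT2 2.1.0, SAMtools 1.9, HTSeq and GRCm39 are named per the submitters' processing notes. The strand setting of the counting and the annotation release are not given in the sources used here, so overlapping and antisense genes may share counts.

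Counts were filtered with filterByExpr (minimum count 10, minimum total 15), scaled by TMM and fitted with edgeR 4.0.16 (quasi-likelihood test, R 4.3.3) in 1 model over all 7 groups with 29 residual degrees of freedom. P-values were adjusted by Benjamini-Hochberg over 20657 genes, and 15 comparisons were made. The fit was tested on simulated data. Alternatives used DESeq2 1.42.0, limma 3.58.1 (voom), other scalings and filters, a replicate block, and each library left out. No replicates were closer than a chi-square of 12.35 per degree of freedom, so none was treated as a repeat deposit.

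The members and all lists were chosen with earlier results of these data known. Full statistics were given for Adipoq, Plin1, Lep, Fasn, Scd1, Cd36 and Ucp1 and for up to 10 other called members with the largest log2 change, and up to 5 genes of each other list were named; further genes named were chosen after their values were seen, and some genes the rule gives are not reported.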

Additional observations from a re-analysis of the deposited data

Results flagged for a closer look

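In groups of 5 or 6 libraries, the highest or lowest library of each member was set against the others by Dixon's 95% criterion. Of 222 groups, 21 held such a library. The criterion's rate of about 1 in 20 is for independent values with a normal spread. These groups are CPM without a log scale and share libraries between genes, so the 21 cannot be set against that rate. P day 2 replicate 4 was the highest library of its group for 5 genes: Fasn at 894 CPM, Acaca at 122 CPM, Thrsp at 86.3 CPM, Agpat2 at 102 CPM and Ucp1 at 4.79 CPM. PD day 2 replicate 2 was the highest for 4 genes: Agpat2 at 136 CPM, Dgat2 at 166 CPM, Cebpa at 271 CPM and Ucp1 at 6.09 CPM. PD day 12 replicate 5 was the highest for Cidea at 106 CPM, Scd1 at 1890 CPM and Dgat1 at 70.8 CPM.

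P day 4 replicate 4 was the highest for G0s2 at 368 CPM and Slc2a4 at 155 CPM. In P day 4 replicate 3, Me1 at 80.6 CPM and Scd1 at 865 CPM were the lowest. PD day 4 replicate 2 was the highest for Cidec at 83.9 CPM and Pck1 at 48.2 CPM. Single values of this kind were G0s2 at 28.6 CPM in PD day 12 replicate 2, the highest, and the lowest values Adrb3 at 2.71 CPM in P day 12 replicate 1 and Scd1 at 1400 CPM in PD day 2 replicate 1.

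G0s2 was called above unwounded skin at days 2 and 4 and below it at day 12 in both arms, the PD day 12 call being lost without unwounded replicate 2. The difference between days was itself tested by edgeR: day 12 minus day 4 was -4.20 in P and -4.60 in PD wounds on the log2 scale, and day 12 minus day 2 was -4.51 and -3.65.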

How the results depend on the processing

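No called log2 change of a member turned its direction under any alternative run. Counts of called members that moved by over 1.5 times were these, and the cause was not tested. By limma-voom they were 20 members lower in P wounds at day 2, 4 higher in P wounds at day 4, 11 lower in PD wounds at day 2, 5 higher in PD wounds at day 4, 1 lower and 2 higher in PD against P wounds at day 4, 5 lower and 2 higher between P days 2 and 4, 17 lower between P days 4 and 12 and 4 higher between PD days 2 and 4. In a fit of the compared libraries alone 5 members were lower in PD wounds at day 2 and 4 between PD days 2 and 4. With 2 surrogate variables, chosen after seeing the data, 9 were lower in PD wounds at day 2, 2 higher between P days 2 and 4 and 1 higher between PD days 2 and 4. DESeq2 gave 5 lower between P days 2 and 4 and 1 higher between PD days 2 and 4. Without a filter, 1 was lower between P days 2 and 4 and 6 between P days 4 and 12, and without a composition factor 7 between P days 4 and 12.

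With each library left out in turn, counts of lower members ran from 6 to 14, 13 to 26 and 24 to 30 in P wounds at days 2, 4 and 12, and from 2 to 5, 19 to 26 and 23 to 32 in PD wounds. Counts of higher members stayed at 3, 2 and 0 in P wounds and ran from 2 to 4 and 2 to 3 and stayed at 0 in PD wounds. PD against P wounds gave 0 throughout. Between days, lower counts ran from 1 to 5 (P days 2 and 4), 5 to 13 (4 and 12), 15 to 24 (2 and 12), 8 to 22 (PD days 2 and 4), 11 to 13 (4 and 12) and 27 to 31 (2 and 12), and higher counts from 0 to 1 between days 2 and 4 in both arms and at 0 otherwise.

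Replicate numbers are shared between groups, and in none of 15 comparisons did every same-numbered pair of libraries deviate together with a correlation over 0.1, so the numbers were not taken as pairs. For PD against P wounds 4 of 5 pairs at day 2 correlated at 0.320 to 0.463 and replicate 3 at -0.253, and the pairs of day 12 ranged from -0.105 to 0.535. With the replicate number as a block, 1 member was lower between P days 2 and 4 and 1 higher between PD days 2 and 4, and the other counts stayed within 1.5 times. Under the block, members with an unadjusted p under 0.05 in PD against P wounds at day 2 numbered 4, against 10 without it, and the Lpl call of P wounds at day 2 and the Plin1, Cd36, Fabp4, Lipe, Fasn and Pck1 calls of P wounds at day 4 were lost, as were Fasn in P wounds at day 12, Acaca in PD wounds at day 4, Pnpla2 between P days 2 and 4, Thrsp between PD days 2 and 4, and Acaca and Thrsp between PD days 2 and 12.

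Without a composition factor the median log2 change of all genes moved from 0.10 to 0.37 in P and from 0.09 to 0.33 in PD wounds at day 12, and from 0.02 to 0.16 in PD wounds at day 2. The split of all genes into lower and higher then moved from 4138 and 4890 to 2617 and 7064, from 4276 and 5006 to 2657 and 6734, and from 3798 and 4335 to 2674 and 5125. Between days the medians moved from -0.01 to 0.17 (P days 4 and 12), 0.02 to 0.22 (P days 2 and 12), 0.02 to -0.09 (PD days 2 and 4) and -0.00 to 0.20 (PD days 4 and 12). Those splits moved from 2604 and 2318 to 1741 and 3977, from 4241 and 4219 to 3129 and 5966, from 329 and 551 to 614 and 343, and from 3224 and 3244 to 2230.0 and 5204. Of the calls against unwounded skin, 9 of 14, 15 of 27 and 24 of 31 in P wounds and 4 of 6, 21 of 30 and 22 of 31 in PD wounds held under every alternative. Depth did not limit most members, but Ucp1 and Acvr1c had 0 counts in some libraries. The 3 unwounded libraries limit all 6 comparisons that use them.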
